A study of Mus musculus with 2 samples.

Results

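Extracellular proteases and their inhibitors are described here as 115 genes of 11484 that carried a symbol on the array. A gene belonged when its symbol matched one of the family names. The families were matrix metalloproteinases (MMP), ADAM and ADAMTS metalloproteinases, ADAMTS-like proteins, tissue inhibitors of metalloproteinases (TIMP), serpins and the PRSS, TMPRSS and kallikrein serine proteases. Calpains, cystatins, proprotein convertases and HTRA proteases completed the list, 13 classes in all. Calpains and clade B serpins work mostly inside cells, and the rule kept them because of their names. Timp3 and Serpinh1 were left out by the rule.

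The study profiled 2 samples of mouse cells with a 1-colour oligonucleotide microarray, 1 parental sample and 1 sample of stem cells generated with a small molecule that the labels do not name. Both samples came from the embryo stage and the strain C57/ICR. Parental cells were at passage 1 in medium with FBS (fetal bovine serum), and the stem cells were at passage 5 in ES (embryonic stem cell) medium. The design text names 3 replicates per sample, and 1 column per sample was analysed here, so no test was possible, the spread between cultures is not known, and passage, medium and treatment cannot be told apart.

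Proteases outside the cell cut matrix proteins, receptors and growth factors, and most are made as inactive precursors that another protease must trim. Their inhibitors bind the active enzyme: TIMPs block metalloproteinases, most serpins trap serine proteases in a covalent complex, and cystatins block cysteine proteases. In mesenchymal cells MMP14 at the cell surface activates secreted MMP2. In epithelia the membrane protease matriptase works with prostasin under the control of Kunitz-type inhibitors.

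Values are the deposited intensities, in arbitrary units. Values up to the 25th percentile of a column, 93.8 for the parental and 93.4 for the stem cells, were taken as too dim to read, and this limit is called the floor. A gene at or under the floor in both samples was given no fold. Where 1 of the 2 values was at or under it, the fold was computed against that sample's floor and is given as "at least". Unless bounds are named, counts at 2-fold use the deposited values. A gene called within 2-fold with 1 value at or under the floor may therefore differ by more. Since the array gives 1 value per gene and sample, fewer cells of a kind and less RNA per cell cannot be told apart. Of the 115 members, 113 were read by 1 probe. Across 612 genes with 2 probes, single probes scattered about their gene's log2 difference with an SD of 1.05, or 2.07-fold, so a difference near 2-fold lies within probe error.

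Markers matched the label of the stem cells in part: 9 of 10 measured pluripotency genes were at least 2-fold higher there, among them Sox2 at 265 and 16129. Nanog, at 77.7 and 94.7, was close to the floor in both samples. No cell type is named for the parental cells. All 3 measured mesenchymal markers were higher in them, with Thy1 at 40943 and 117, S100a4 at 31578 and 201 and Snai2 at 3095 and 32.8.

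Of the 115 members, 81 were above the floor in at least 1 sample and 34 were dim in both. The dim share was 29.6%, beside 15% of all genes. Among the 81, 19 (23.5%) were higher in the stem cells by 2-fold or more and 18 (22.2%) were lower. The other 44 had deposited values less than 2-fold apart, some of them with 1 value at or under the floor. Over all 9766 genes above the floor the shares were 22.1% higher and 22.6% lower, so the members as a whole were close to the background. Their median log2 difference was 0.20, beside 0.12 over all genes. With the floor raised to the column median, which leaves out more dim genes, it was -0.43, beside 0.14 over all genes.

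The members differed from each other more than those shares show, because their lower and higher sides were unlike in size. At 4-fold or more, bounds included, 11 members were lower and 1 was higher, 13.6% and 1.23%, beside 9.15% and 6.32% of all genes. The 18 lower members had a median log2 difference of -3.19 and reached -5.69. The 19 higher members had a median of 1.48 and reached 2.47, and no such medians over all genes are given here. For 7 of the higher members the parental value was so dim that the bound was under 2-fold. That left 12 (14.8%, beside 20.5% of all genes). 

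**Figure D1:**
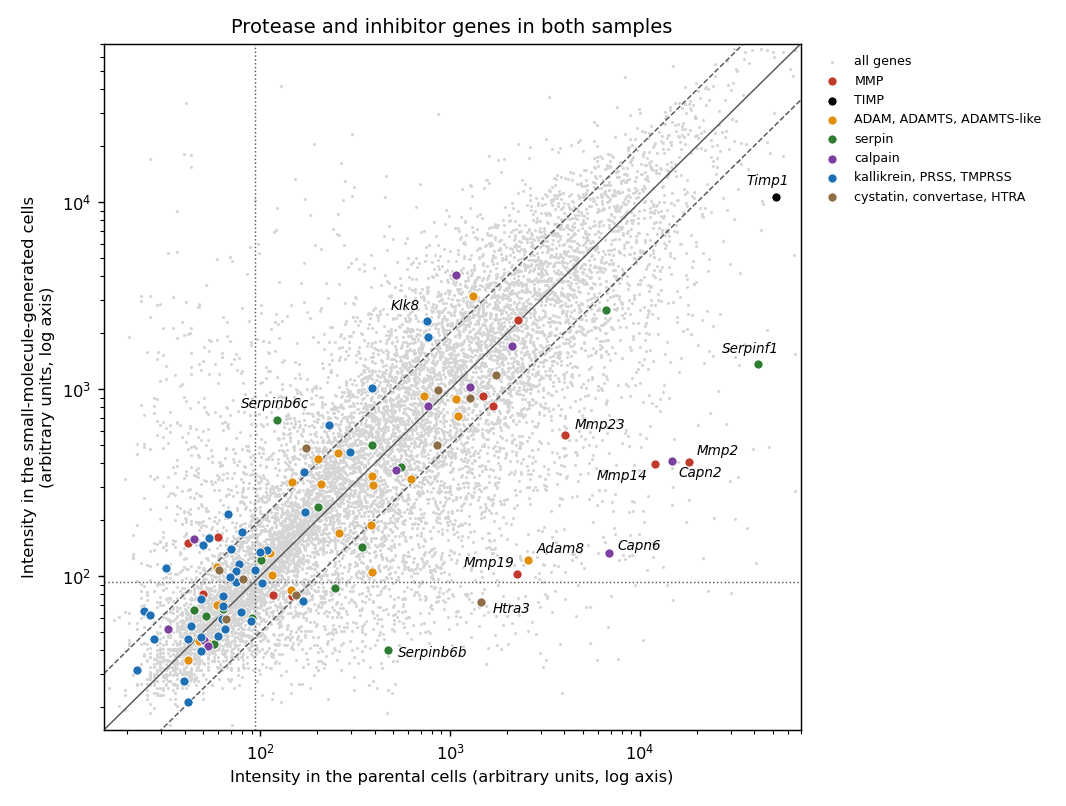
Intensity of each gene in the parental cells (x axis, arbitrary units, log axis) and in the small-molecule-generated cells (y axis, same scale), 1 array value per sample; grey points are all 11484 genes and coloured points the 115 members by class. Dashed lines mark 2-fold, the solid line equality and dotted lines the floors of 93.8 and 93.4; Mmp2, Mmp14, Capn2 and Capn6 lie far under the lower dashed line.

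Matrix metalloproteinases were divided. Of 12 measured, 11 were above the floor, 5 were lower in the stem cells and 2 were higher only from dim parental values. The other 4 had deposited values less than 2-fold apart, but Mmp9 and Mmp3 each had 1 value under the floor. Over all genes above the floor 22.6% were lower and 22.1% higher. Mmp2, the gelatinase that cuts denatured collagen and collagen IV, was at 18101 in the parental cells and 407 in the stem cells, 44.5-fold lower (log2 difference -5.47). Mmp14, its membrane-bound activator, was at 11959 and 397, 30.2-fold lower. Both partners of this activation pair were thus bright in the parental cells and above the floor, but far dimmer, in the stem cells.

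Mmp19, which cuts basement membrane proteins, was at 2261 and 103, with a log2 difference of -4.46. Mmp23, a membrane-anchored enzyme without the hemopexin domain of most MMPs, was at 4043 and 570.1, 7.09-fold lower. Mmp11, also called stromelysin 3 and activated inside the cell by furin, was at 1673 and 809, 2.07-fold lower and so within probe error.

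Other MMPs were near equal or dim. Mmp17, a GPI-anchored enzyme, was at 2289.7 and 2329.6, a difference of 1.02-fold. Mmp13, a collagenase of cartilage and bone, was at 1493 and 914, a 1.63-fold difference. Mmp9, the second gelatinase, was at 148 and 78.3, at least 1.58-fold lower, and Mmp3, or stromelysin 1, at 117 and 79.2, at least 1.25-fold lower. For these 2 genes the signal was near the floor in both samples, unlike that of Mmp2. Mmp24, a membrane-type enzyme of neurons, was at 41.4 and 151, at least 1.61-fold higher. Mmp21, which acts in left-right patterning of the embryo, was at 59.7 and 163, at least 1.73-fold higher. Mmp1a, a collagenase gene, was dim in both samples at 50 and 80.6.

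Promoter sequences are shown for 4 MMP genes, the neighbours Mmp13, Mmp3 and Mmp1a and the lower Mmp14. Of the neighbours, Mmp13 differed by less than 2-fold, and Mmp3 has only a lower bound, at least 1.25-fold. Mmp1a was dim in both samples and has no fold, so the windows allow no contrast by expression. Each is the 250 bases before the annotated start from RefSeq (GRCm38.p6), 5′ to 3′ on the gene's strand, with capitals at matches to the AP-1 motif TGANTCA and the TATA motif TATAAA on either strand.
Mmp13, chr9:7272264-7272513, plus strand: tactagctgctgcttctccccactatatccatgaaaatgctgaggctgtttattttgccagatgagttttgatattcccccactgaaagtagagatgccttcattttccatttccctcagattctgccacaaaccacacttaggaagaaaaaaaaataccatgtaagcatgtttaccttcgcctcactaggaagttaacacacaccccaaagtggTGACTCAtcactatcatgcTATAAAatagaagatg
Mmp3, chr9:7445572-7445821, plus strand: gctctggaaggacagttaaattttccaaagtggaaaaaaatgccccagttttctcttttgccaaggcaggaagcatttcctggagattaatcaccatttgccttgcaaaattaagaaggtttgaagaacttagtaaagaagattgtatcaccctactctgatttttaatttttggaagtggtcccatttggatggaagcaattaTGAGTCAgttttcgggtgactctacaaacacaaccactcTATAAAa
Mmp1a, chr9:7463891-7464140, plus strand: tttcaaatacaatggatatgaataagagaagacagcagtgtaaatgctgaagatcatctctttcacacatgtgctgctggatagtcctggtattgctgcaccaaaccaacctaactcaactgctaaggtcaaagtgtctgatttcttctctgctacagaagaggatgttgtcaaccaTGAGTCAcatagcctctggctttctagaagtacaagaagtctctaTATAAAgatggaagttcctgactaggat
Mmp14, chr14:54431348-54431597, plus strand: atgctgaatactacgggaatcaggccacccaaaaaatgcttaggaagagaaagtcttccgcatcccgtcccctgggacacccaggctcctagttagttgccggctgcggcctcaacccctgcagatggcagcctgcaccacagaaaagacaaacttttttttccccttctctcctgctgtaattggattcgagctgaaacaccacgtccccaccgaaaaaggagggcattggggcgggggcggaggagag

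In the RefSeq gene order Mmp13, Mmp3 and Mmp1a lie in 1 cluster of 10 MMP genes, of which 3 were measured. All 3 windows held both motifs, with the AP-1 match 35, 46 and 73 bases and the TATA match 16, 7 and 28 bases before the start. Both motifs together occurred in 1.21% of all 32851 windows of that length, an AP-1 match with or without TATA in 6.75% and a TATA match in 12.4%. The other 6 MMP windows, of Mmp11, Mmp14, Mmp21, Mmp23 (with 2 starts) and Mmp24, held no AP-1 match, and only that of Mmp21 a TATA match. The 3 genes are neighbours of 1 family, so their windows are not 3 independent cases. A match is a run of letters and not a bound site. No window was used for Mmp2, Mmp9, Mmp17 and Mmp19.

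The single TIMP on the list, from which the rule left out Timp3, stood beside the lower MMPs in direction. Timp1, a secreted inhibitor of most MMPs, was at 51692 in the parental cells and 10590 in the stem cells, 4.88-fold lower (log2 difference -2.29). It was the member with the smallest fold among those lower by 4-fold with both values above the floor, and its stem cell value stayed above the 75th percentile of that column (1372). The log2 difference of Timp1 was -2.29, and that of Mmp2 and Mmp14 was -5.47 and -4.91. A balance of enzymes and inhibitors was not tested and cannot be read from these values. The mesenchymal markers named above, 3 of 14 on their list, went the same way as the lower MMPs and Timp1, with summed intensities of 75617 and 351, and their part in these differences was not tested.

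Among ADAM proteases, which shed proteins from the cell surface, 13 of 15 were above the floor, 10 of them within 2-fold. By 2-fold or more 2 were higher and 1 was lower, beside 22.1% and 22.6% of all genes. Adam8, a sheddase known from leukocytes, was at 2568 and 122, 21.1-fold lower and just above the floor in the stem cells. Of 7 measured macrophage and leukocyte markers, from a list of 12, 3 were lower as well, 1 was higher and 3 differed by less than 2-fold. The lower ones were C1qa at 3198 and 35.7, Fcer1g at 1894 and 206 and Cd68 at 728 and 310. Laptm5 was the higher one, at 1287 and 12204, and Ptprc was at 165 and 118. The summed intensity of all 7 was 7630.3 and 13218, and Laptm5 alone made up most of the stem cell sum. The part of such cells in the Adam8 value was not tested.

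Adam17, the main sheddase of TNF and of EGF receptor ligands, was at 1098 and 716, a 1.53-fold difference. Adam15 had probes that disagreed, 1 at 1538 and 557 and the other dim at 43.4 and 51.8, and their mean gave a log2 difference of -0.61. Adam23, a catalytically inactive member that binds LGI proteins in the brain, was at 1322 and 3141, 2.38-fold higher. Its relatives of the same kind, Adam22 at 394 and 307 and Adam11 at 256 and 454, differed by less than 2-fold. Adam6a, a sperm gene within the immunoglobulin heavy chain locus, was at 148 and 319, 2.16-fold higher. The remaining ADAM genes, most of them known from testis or epididymis, lay between 35.7 and 311 in both samples and were within 2-fold or dim.

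ADAMTS proteases, which cut proteoglycans and procollagens, were mostly of modest signal. Adamts9, an enzyme that cuts versican, was at 390 and 105, 3.72-fold lower. Adamts20, which acts on versican around migrating melanoblasts, was at 202 and 423, 2.10-fold higher. Adamts10, which binds fibrillin, at 726 and 919, and Adamts14, a procollagen N-proteinase, at 387 and 342, differed by less than 1.5-fold. Adamts17 was at 145 and 84.4, at least 1.55-fold lower, and Adamts6 was dim. ADAMTS-like proteins have no protease domain: Adamtsl3 was at 384 and 188, 2.05-fold lower, Adamtsl4 at 622 and 330.2 and Adamtsl5 at 1071 and 885. All 3 were numerically lower, 2 of them by less than 2-fold, and Adamtsl1 and Adamtsl2 were dim in both samples.

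The HTRA pair split. Htra3, a secreted serine protease, was at 1461 and 72.2, at least 15.6-fold lower. Htra2, a mitochondrial protease that promotes cell death when released, was at 1278 and 894, a 1.43-fold difference.

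**Figure D2:**
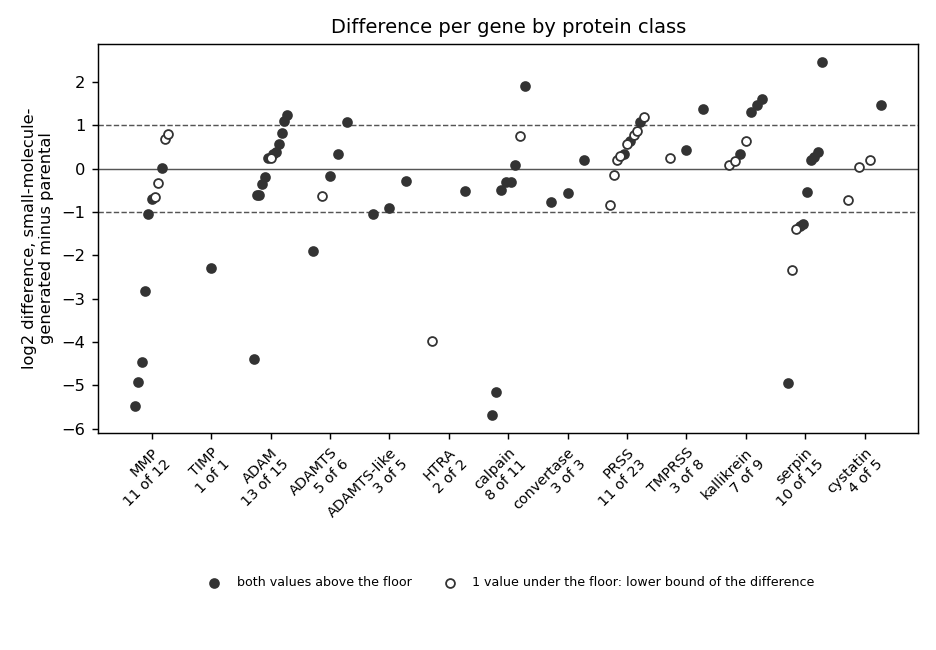
log2 difference of each member above the floor in at least 1 sample, small-molecule-generated minus parental (y axis), by protein class (x axis, with the number shown of the number measured); filled points have both values above the floor, open points are lower bounds of the size, and dashed lines mark 2-fold. MMP, calpain, HTRA, ADAM and serpin points reach -3.97 or lower, while the highest point is Serpinb6c at 2.47.

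Calpains, calcium-dependent cysteine proteases of the cytosol, showed the largest difference of all members. Capn6, which lacks the catalytic cysteine and binds microtubules, was at 6832 and 133, 51.5-fold lower (log2 difference -5.69). Capn2, the catalytic subunit of m-calpain, was at 14653 and 415, 35.3-fold lower. The subunits around it did not follow: Capns1, the small subunit it shares with Capn1, was at 2117 and 1703, and Capn1, of mu-calpain, at 768 and 815. Both differed by less than 1.5-fold.

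Capn5, a calpain without the calmodulin-like domain of the classical enzymes, was at 1074 and 4051, 3.77-fold higher. Capn10, a gene studied in type 2 diabetes, was at 1266 and 1029, and Capn7 at 522 and 371. Capn11, a testis calpain, was at 44.8 and 158, at least 1.69-fold higher. The classical and atypical calpains above the floor, 8 of 11, therefore had 2 members lower, 2 higher and 4 within 2-fold. These counts were close to the shares of all genes, 22.6% lower and 22.1% higher. Capn8, Capn15 and Capns2 were dim in both samples.

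The windows before the starts of Capn2 and Capn6 are printed because these lower calpains both held an AP-1 match, in capitals, and no TATA match. Capn8, dim in both samples, also held an AP-1 match and no TATA match, 106 bases before its start, and is not printed. An AP-1 match thus stood in 3 of 13 calpain windows.
Capn2, chr1:182517611-182517860, minus strand: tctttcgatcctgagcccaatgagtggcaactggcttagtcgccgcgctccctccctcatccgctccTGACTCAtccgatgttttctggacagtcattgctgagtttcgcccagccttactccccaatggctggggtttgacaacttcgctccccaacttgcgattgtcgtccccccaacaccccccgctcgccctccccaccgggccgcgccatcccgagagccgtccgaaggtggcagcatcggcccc
Capn6, chrX:143827413-143827662, minus strand: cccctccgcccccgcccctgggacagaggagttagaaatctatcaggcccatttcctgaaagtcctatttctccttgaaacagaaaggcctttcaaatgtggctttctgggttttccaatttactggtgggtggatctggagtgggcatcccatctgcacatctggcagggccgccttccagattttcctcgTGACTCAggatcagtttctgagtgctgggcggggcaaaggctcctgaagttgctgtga

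The AP-1 match lay 183 bases before the start in Capn2 and 58 bases in Capn6. In all, 85 of the 115 members had a window in the RefSeq table, 98 windows with alternative starts. AP-1 matches stood in 11 of the 98 (11.2%), beside 6.75% of all windows. They were in 2 of 17 windows of lower members, 2 of 17 of higher members, 5 of 33 of members within 2-fold and 2 of 31 of dim members. The GC box GGGCGG, searched on both strands, stood in 9 of 17 windows of lower members, 7 of 17 of higher members, 13 of 33 of those within 2-fold and 3 of 31 of dim members, beside 32.7% of all windows. TATAAA stood in 0 of 17 windows of lower members, 2 of 17 of higher members, 6 of 33 of those within 2-fold and 4 of 31 of dim members, beside 12.4% of all windows.

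Proprotein convertases, which cut precursors of MMPs, ADAMs and growth factors after basic residues, differed little. Furin was at 1742 and 1190.3, a 1.46-fold difference. Pcsk6, or PACE4, was at 862 and 992 and Pcsk7 at 849.9 and 501, a 1.70-fold difference. None of the 3 measured reached 2-fold. The precursors of Mmp14, which was lower, and of Mmp11, whose difference was within probe error, are known targets of furin. Whether furin targets as a group differed was not tested.

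Serpins were lower in 5 of the 10 genes above the floor and higher in 1, beside 22.6% and 22.1% of all genes. Serpinf1, which encodes the secreted non-inhibitory serpin PEDF, an antiangiogenic factor, was at 41576 and 1357, 30.6-fold lower (log2 difference -4.94). Serping1, the C1 inhibitor of complement, was at 548 and 381, a 1.44-fold difference. Clade A, made mostly by liver, held Serpina10, a coagulation inhibitor, at 386 and 501 and Serpina6, the corticosteroid carrier, at 203 and 233, with 2 further members dim. Of 6 measured endoderm and liver markers, from a list of 11, Apoa1, Hnf4a and Sox17 were dim in both samples, Amn and Trf were higher by 2-fold or more and Gata4 was within 2-fold.

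Clade B serpins, intracellular inhibitors that protect cells from their own granule proteases, went both ways in 1 group of paralogs. Serpinb6a, an inhibitor of cathepsin G, was at 6617 and 2631, 2.52-fold lower. Serpinb6b was at 474 and 40.1, at least 5.07-fold lower, and Serpinb6c at 123 and 679, 5.54-fold higher and the one member higher by 4-fold. Serpinb6d was dim in both samples. These 4 genes lie in 1 cluster and are of similar sequence, and whether each probe reads its own gene alone was not tested. In the same cluster of 16 genes Serpinb1a, an inhibitor of neutrophil elastase, was at 247 and 86.4, at least 2.64-fold lower, and Serpinb9b, a paralog of the granzyme B inhibitor, at 346 and 143, 2.41-fold lower. Serpinb10 was at 102 and 122, and Serpinb1c was dim, as was Serpinf2, the plasmin inhibitor of clade F. Of 6 measured mast cell and neutrophil genes, from a list of 11, Kit, Prtn3 and Tpsb2 were higher in the stem cells, Cma1 was within 2-fold and Camp and Mpo were dim.

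Cystatins were dim to modest. Cst3, or cystatin C, a secreted inhibitor of cathepsins, was at 155 and 79.2, at least 1.66-fold lower. Cst6, or cystatin E/M, an inhibitor of legumain and cathepsins, was at 174 and 483, 2.78-fold higher. Cst9 was at 81.7 and 96.1 and Cst13 at 60.4 and 108, both near the floor, and Cst7 was dim in both samples.

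**Figure D3:**
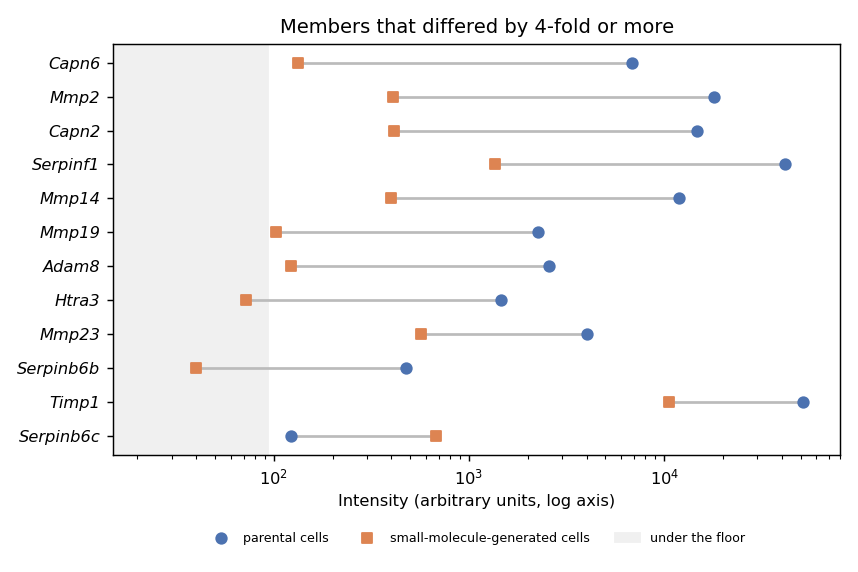
Intensity in the parental cells (circles) and the small-molecule-generated cells (squares) for the 12 members that differed by 4-fold or more, bounds included (x axis, arbitrary units, log axis; 1 array value per sample, grey area under the floor). The parental value is the higher one in 11 rows, from Capn6 at 6832 and 133 to Timp1 at 51692 and 10590, and the lower one for Serpinb6c.

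Many serine proteases of the PRSS, TMPRSS and kallikrein families gave little signal, and 19 of 40 were dim in both samples, beside 15% of all genes. Of the 21 above the floor, 10 were higher by 2-fold or more, 1 was lower and 10 were within 2-fold, and with bounds 6 were higher and 0 lower. The background over all genes was 22.1% higher and 22.6% lower, and for the bounded rule 20.5% higher and 20.8% lower. None of them reached 4-fold, so most of these differences are near the probe error.

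Prss8, or prostasin, a GPI-anchored protease of epithelia, was at 68.0 and 214, at least 2.28-fold higher. Tmprss5, a transmembrane protease of the nervous system, was at 389 and 1013, 2.61-fold higher. Prss36, a protease with several protease domains in 1 chain, was at 170 and 359, 2.11-fold higher. Prss41 (53.9 and 160.4), Prss55 (80.7 and 171) and Tmprss12 (31.8 and 111), known mainly from testis, came from dim parental values and had bounds under 2-fold. The 2 measured spermatogenic markers of a list of 6, Acr (148 and 165) and Ddx4 (191 and 258), were within 2-fold. Prss53 was at 168 and 73.4, at least 1.80-fold lower. Prss16, Prss33 and Tmprss7 were within 2-fold. Prss29, Prss46, Prss47 and Prss52 had deposited values less than 2-fold apart, with 1 value at or under the floor. Of the 23 PRSS genes 12 were dim in both samples, and of the 8 TMPRSS genes 5 were, namely Tmprss2, Tmprss3, Tmprss4, Tmprss6 and Tmprss15.

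Kallikreins, secreted trypsin-like and chymotrypsin-like proteases, sit side by side in 1 cluster. Klk8, or neuropsin, was at 756 and 2324, 3.07-fold higher in the stem cells. Its neighbour Klk9 was at 764 and 1889.7, 2.47-fold higher, and Klk6, known from brain, at 230 and 639, 2.78-fold higher. Klk10 was at 50 and 146, at least 1.55-fold higher. Klk4, an enzyme of enamel, was at 173 and 219, Klk5, of the skin barrier, at 69.0 and 99.2, and Klk11, with 2 probes, at a mean of 74.3 and 107. Klk14 and Klk1b16 were dim in both samples.

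The cluster holds 26 kallikrein genes, of which 9 were measured. All 9 had the larger value in the stem cells, dim ones included, where 53.2% of all genes had a difference above 0. Klk14 and Klk1b16 were too dim to read, and Klk5, Klk10 and Klk11 had parental values under the floor. The 9 belong to 1 gene family, and whether a probe also reads other members was not tested. In the middle of the measured stretch lay Klk9, Klk8 and Klk6, the 3 kallikreins higher by 2-fold or more with both values above the floor. Markers of epithelia went the same way, 4 of 5 measured from a list of 8, among them Epcam at 25.2 and 1571 and Krt8 at 210 and 2711, with summed intensities of 1075 and 9970. Of 4 measured keratinocyte genes Sfn was higher (313 and 11959), Krt10 lower (1245 and 557), and Krt5 and Krt14 within 2-fold. Pluripotency markers were higher in 9 of 10 measured, with summed intensities of 806.5 and 129525, and trophoblast markers in all 3 measured. The part of any of these cell types in the kallikrein values was not tested.

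**Figure D4:**
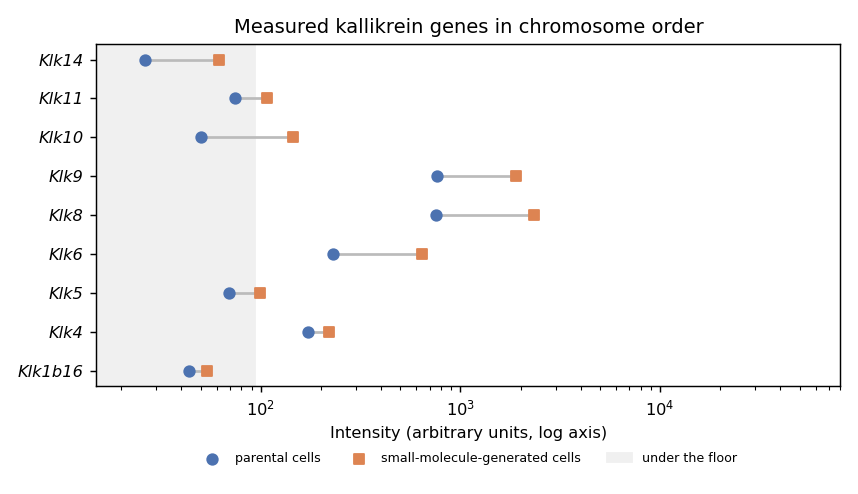
Intensity of the 9 measured kallikrein genes in the parental cells (circles) and the small-molecule-generated cells (squares), listed in their order along the chromosome (x axis, arbitrary units, log axis; 1 array value per sample, grey area under the floor). The square lies to the right of the circle in every row, by the most from Klk10 to Klk6 and in the dim Klk14.

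Other genes of extracellular and lysosomal proteolysis, 143 by name and not members, were set beside the list. Of these 64 were measured and 50 were above the floor, with 14 (28%) higher and 16 (32%) lower by 2-fold or more, beside 22.1% and 22.6% of all genes. At 8-fold or more, bounds included, 6 (12%) were higher and 8 (16%) lower, beside 2.22% and 3.97% of all genes above the floor. The list was chosen with earlier results of these data known, so shares above the background may come from that choice.

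The lower ones included partners of the proteases described above. Plat, the tissue plasminogen activator, was at 5394 and 257, 21.0-fold lower, while Plau, the urokinase, was dim in both samples. Lrp1, the receptor that takes up complexes of proteases and inhibitors, was at 6270.3 and 252, 24.9-fold lower. F2r, the thrombin receptor PAR1, was at 21797 and 1376, 15.8-fold lower. Bmp1, the procollagen C-proteinase, was at 2204 and 49.7, at least 23.6-fold lower, and its enhancer Pcolce was at 29638 and 4689.7, 6.32-fold lower. The second enhancer gene, Pcolce2, went the other way, at 744 and 2076, 2.79-fold higher.

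Lysosomal cysteine proteases differed by enzyme. Ctsh was at 4025 and 75.8, at least 43.1-fold lower, and Ctsk, a collagen-degrading cathepsin, at 1084 and 55.2, at least 11.6-fold lower. Ctsb was at 4374 and 1172, 3.73-fold lower, Ctsl at 1439.7 and 956 and Ctsz at 4419 and 2404. Ctsf was at 206 and 221, a 1.07-fold difference, and Ctsw, a cathepsin of lymphocytes, at 47.9 and 189, at least 2.01-fold higher. Lgmn, the legumain that Cst6 inhibits, was at 2541 and 385, 6.59-fold lower, opposite to its inhibitor. Cpe, a carboxypeptidase of prohormones, at 23311 and 745, was 31.3-fold lower and Bace1, the beta-secretase, at 3184 and 288, was 11.0-fold lower.

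On the other side stood the matriptase system. St14, which encodes matriptase, was dim in parental cells (26.4) and at 2416 in the stem cells, at least 25.8-fold higher. Its Kunitz inhibitors Spint1 (32.7 and 5312) and Spint2 (384 and 5196) were at least 56.6-fold and 13.5-fold higher. Prss8, the prostasin of the same pathway, was the member at 68.0 and 214. Hpn, or hepsin, a related membrane serine protease, was at 103 and 1090.2, 10.6-fold higher. Wfdc2, a secreted protein with inhibitor-like WAP domains, was at least 31.6-fold higher (23.6 and 2963), and Cpn1, a carboxypeptidase of plasma, 11.3-fold higher (110.0 and 1242). Protease and inhibitors of this membrane system were thus higher together. So were 4 of 5 epithelial markers, 9 of 10 pluripotency markers (summed intensities 806.5 and 129525) and all 3 measured trophoblast markers. Among the trophoblast markers, Krt7 and Hand1 were near the probe error. The part of any of these cell types was not tested.

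**Figure D5:**
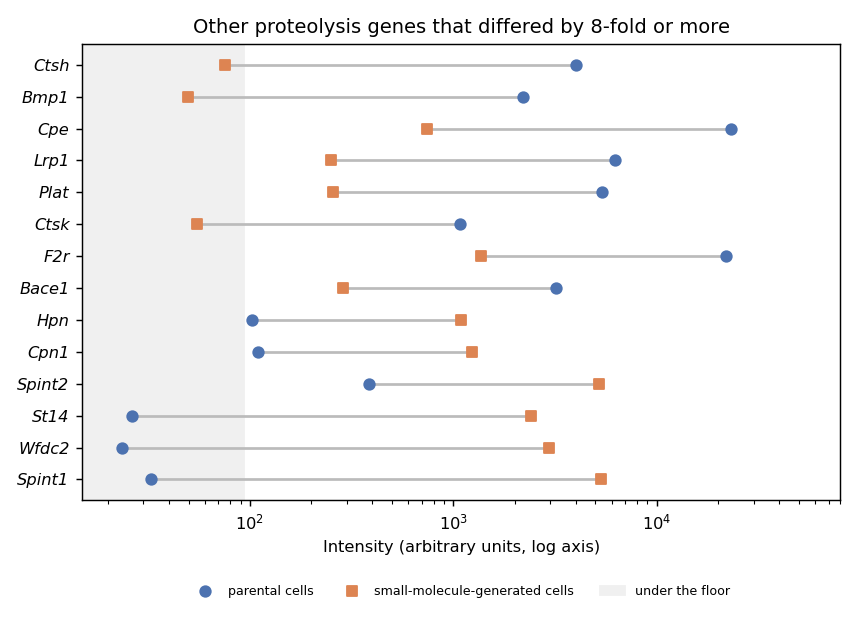
Intensity in the parental cells (circles) and the small-molecule-generated cells (squares) for the 14 other proteolysis genes that differed by 8-fold or more, bounds included (x axis, arbitrary units, log axis; 1 array value per sample, grey area under the floor). The parental value is higher in 8 rows, from Ctsh to Bace1, and lower in 6, where St14, Wfdc2 and Spint1 start under the floor.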

How the data were processed

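RNA of 1 parental sample and 1 sample of small-molecule-generated stem cells was hybridised to the Mouse Whole Genome OneArray v2 with Cy5, per the labels. The authors deposited 1 intensity per probe and sample on a linear scale. How the background was corrected and the arrays normalised, and any filter, is not given in the sources. Nearly equal quantiles in both columns (medians 304 and 305) mean that a change in total RNA would not be seen. The number of arrays limits the precision. Of 13989 probes, 12380 had 1 symbol in the platform annotation, 0 had several and 1609 none. Names were updated through Entrez identifiers to RefSeq (GRCm38.p6), and no member changed name.

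Intensities were brought to log2 and probes averaged per gene (pandas 2.3.3, numpy 2.4.6). The floor was the 25th percentile of a column. With 1 sample per group no test was run and no p-value computed. The calling step was tested on simulated data. Members, classes, motifs and the 143 other genes were chosen with earlier results of these data known. The naming rule took all genes of small classes above the floor, other members at 4-fold or more, up to 4 near-equal genes per class and other proteolysis genes at 8-fold or more. The kallikreins, Prss8, Tmprss5 and further genes outside it were named after their values were seen. Protein motifs planned for the members were not analysed here. Promoter windows came from RefSeq and their positions belong to that build. No build is stated for the probes.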

Additional observations from a re-analysis of the deposited data

How the results depend on the processing

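The count of higher members depended on dim values: it was 19, 12 with an offset of 50 added, 12 with dim values raised to the floor and 11 with the floor at the column median. The count of lower members was 18 and stayed between 12 and 20 under those settings, 3 scalings, the brightest probe, no filter and the list without calpains and clade B serpins. At 4-fold, 1 member was higher and 11 were lower. The median log2 difference of 0.20 moved to -0.43 with the floor at the column median, where that of all genes was 0.14. Intensity-dependent centring (lowess, span 0.3) moved the median of all genes from 0.12 to -0.01. All 12 members at 4-fold kept their direction and 2-fold under each setting except the floor at the median, where 11 did. Of 39 named members under 6 settings, no log2 difference turned its sign where it was 2-fold or more, and 3 of 234 values moved by more than the probe SD: Mmp24, Capn11 and Serpinb6b with dim values raised to the floor. No paired analysis was possible because each group has 1 sample and the result comes from no test. With 1 sample per group no replicate could be left out.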
